A study of Mus musculus with 8 samples.

Results

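Potassium channel genes of the mouse cortex were followed across a freezing injury and across the loss of interleukin-6 from microglia. The members were all genes with an array probe whose symbol starts with Kcn, with 1 such gene left out. They came to 97 genes and 155 probes, out of 22911 named genes and 56605 probes on the array, and 89 of the genes had enough signal to be tested. The remaining 8, among them Kcnj1, Kcnj15, Kcnk5, Kcnk18, Kcnmb1, Kcnmb3 and the noncoding Kcnmb4os1, were well above background in at most 3 of 16 channels and were not tested.

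RNA came from the right fronto-parietal cortex on the injured side in 16 mice. The 4 groups of 4 animals were cryolesioned mice lacking microglia-derived Il6, cryolesioned floxed mice, control mice lacking microglia-derived Il6 and control floxed mice. A cryolesion is a focal freezing injury, and floxed mice carry an allele flanked by recombination sites. The labels give neither the driver that removes Il6 in microglia, nor the age of the mice, nor the time after injury. Each of 8 Agilent arrays compared 2 animals in 2 colours. A pair of arrays set Il6-deficient against floxed mice among controls (the control side), and another pair did so among cryolesioned mice (the lesion side). On the other 4 arrays, cryolesioned floxed mice met Il6-deficient controls (the floxed-lesion side), and cryolesioned Il6-deficient mice met floxed controls (the deficient-lesion side). The change within a genotype was therefore fitted through the whole loop, whereas the change pooled over both genotypes equals the mean of the 4 lesion-against-control arrays, which held 4 cryolesioned and 4 control animals. Replicate animals are named as biological replicates in the labels.

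Potassium channels let potassium leave the cell and so set the resting potential, end the action potential and limit repetitive firing. The voltage-gated families (Kcna to Kcnd, Kcnh and Kcnq) form pores that open on depolarisation, and Kcnf, Kcng, Kcns and Kcnv encode silent subunits that make no channel alone but modify Kcnb pores. Kcnma, Kcnn, Kcnt and Kcnu channels respond to calcium, sodium or pH inside the cell, Kcnj encodes inward rectifiers and Kcnk the leak channels with a tandem pore. Most are best known from neurons, while Kcnk13 is known from microglia and Kcnj8 from pericytes and smooth muscle.

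In cryolesioned cortex more potassium channel genes were lower than higher. Pooled over genotypes, 21 of the 89 tested members passed an adjusted p of 0.05 (23.6%), 18 lower and 3 higher, while over all 29361 tested features 11.9% passed, 5.86% lower and 6.01% higher. The median log2 change of the members was -0.20, against -0.01 for all features. A negative value was found in 67 of 89 members (75.3%), beside 52.4% of all features. The lower members were the pore genes Kcnc1, Kcnc2, Kcnc4, Kcnh3, Kcnh5, Kcnq3, Kcnn2, Kcnj3, Kcnj9, Kcnj11, Kcnj14, Kcnk1 and Kcnk4, the silent subunits Kcng3, Kcns3 and Kcnv1, and the auxiliary subunits Kcnip4 and Kcnmb4. The Kcng3 probe was dim and had enough signal to be tested only through the control animals. The higher members were Kcnk13, Kcnj8 and Kcnq1. Within Il6-deficient animals 5 members fell and none rose, beside 2.73% of all features called (1.07% lower, 1.67% higher). Within floxed animals 6 fell and 1 rose, beside 3.05% called (1.19% lower, 1.86% higher). No member was called for genotype or for a genotype-by-cryolesion interaction. In whole tissue, fewer cells of a type and less RNA per cell cannot be told apart.

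The pooled count depended on single arrays. It was 7 without the second array of the deficient-lesion side and 8 without the second of the floxed-lesion side, 13 without the first of the floxed-lesion side or the first of the control side, and up to 31 when another array was left out. Kcnc4, Kcnh3, Kcnip4, Kcnj9, Kcnmb4 and Kcnv1 were called in the pooled comparison under all 18 alternatives tried. Others were easily lost. Of the 8 fits that left out an array, the pooled call held in 1 for Kcng3. It held in 2 for Kcnc1, Kcnh5, Kcnj8, Kcnk1 and Kcnq1, and in 3 for Kcnj11 and Kcnj14. With the sex of the animals as a covariate, 13 members were called, 12 of them among the 21. The calls lost were those of Kcnc1, Kcnc2, Kcng3, Kcnh5, Kcnj3, Kcnj8, Kcnj11, Kcnk1 and Kcnq1. In this loop the sex term was estimated from the second control-side array alone. Within Il6-deficient animals that fit equals leaving this array out, so it is not a separate check. The pooled adjustment rests on the animals of that array.

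**Figure D1:**
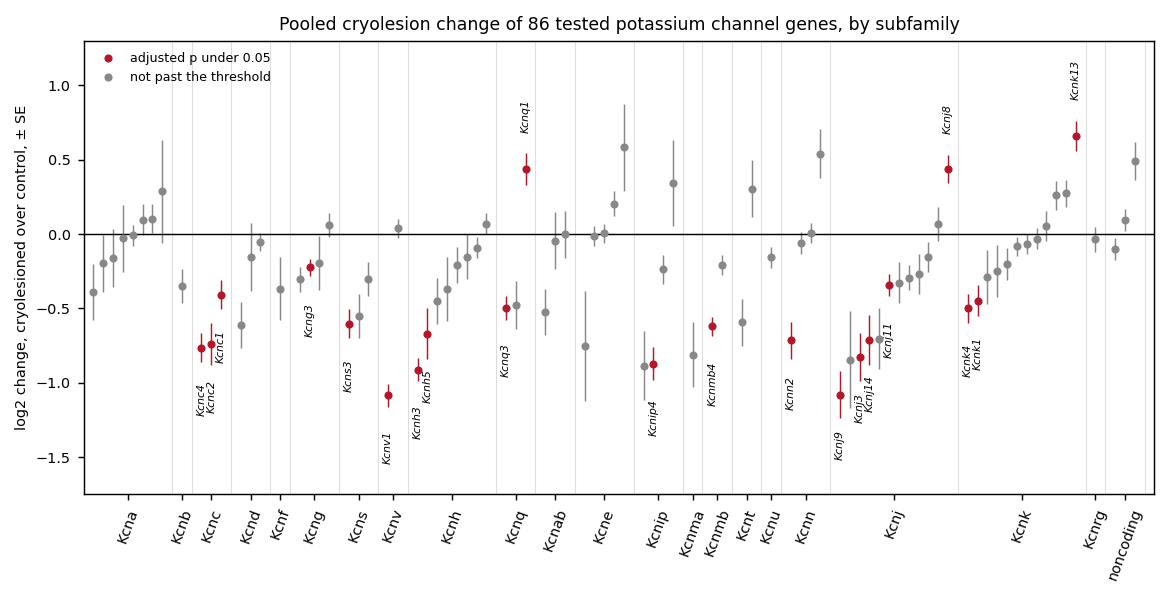
Log2 change of 86 of the 89 tested potassium channel genes in cryolesioned against control animals, pooled over genotypes (the mean of the 4 arrays that set a cryolesioned animal against a control), grouped by subfamily on the horizontal axis. Points are fitted changes, bars are ± 1 SE, and the 21 members in red passed an adjusted p of 0.05. 18 of them lie below 0, and 3 (Kcnj8, Kcnk13 and Kcnq1) above it.

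Sex differed between the groups. Xist, the transcript of the inactive X, was well above background in none of the 8 cryolesioned animals, in 1 of 4 Il6-deficient controls and in 3 of 4 floxed controls, and the Y-linked probes were detected in the other animals. Both arrays of the floxed-lesion side joined animals with Y-linked signal, whereas both arrays of the deficient-lesion side set such animals against floxed controls with Xist. The median of the 18 lower members was -0.52 on the deficient-lesion side and -0.85 on the floxed-lesion side, and that of the 3 higher members 0.32 and 0.64 in the same order. These members were called from the mean of the same 4 arrays, so their direction on either side is not separate evidence. Over all 89 tested members the medians were -0.152 and -0.245 in that order. The 2 sides also differ in the genotypes they join. Il6 itself was near background: it was detected in 3 of 4 floxed cryolesioned animals and in none of the 4 animals of each other group. Neuron markers averaged 13.96 log2 units in Il6-deficient cryolesioned, 13.74 in floxed cryolesioned, 14.33 in Il6-deficient control and 14.02 in floxed control animals, and 2 of the 8 fell in the pooled comparison (median log2 change -0.41). Striatal neuron markers, which the cortex should hold little of, ranged over animals from 9.65 to 11.76 and from 9.51 to 11.39 in the Il6-deficient and floxed cryolesioned groups, and from 10.53 to 11.03 and from 11.13 to 11.80 in the Il6-deficient and floxed controls. The part of the neuron and striatal values in the channel changes was not tested.

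The start regions of 4 called members are shown because their pooled calls bear the account below, Kcnc4, Kcnj9 and Kcnmb4 for the fall and Kcnk13 for the rise. Each line gives the 250 bases upstream of the start in RefSeq, GRCm38.p6, read 5′ to 3′ on the gene's strand. The regions are chr3:107458899-107459148 on the minus strand, chr1:172329323-172329572 on the minus strand, chr10:116473524-116473773 on the minus strand and chr12:99964249-99964498 on the plus strand. Capitals mark matches on either strand to a STAT motif (TTCNNNGAA), an AP-1 motif (TGANTCA), a CRE (TGACGTCA) or a GC box (GGGCGG), none of which overlapped another in these windows.
Kcnc4: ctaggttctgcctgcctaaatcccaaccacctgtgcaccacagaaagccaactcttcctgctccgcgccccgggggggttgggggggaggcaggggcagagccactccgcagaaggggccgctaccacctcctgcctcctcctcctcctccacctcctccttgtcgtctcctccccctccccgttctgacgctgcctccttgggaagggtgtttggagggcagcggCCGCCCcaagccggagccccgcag
Kcnj9: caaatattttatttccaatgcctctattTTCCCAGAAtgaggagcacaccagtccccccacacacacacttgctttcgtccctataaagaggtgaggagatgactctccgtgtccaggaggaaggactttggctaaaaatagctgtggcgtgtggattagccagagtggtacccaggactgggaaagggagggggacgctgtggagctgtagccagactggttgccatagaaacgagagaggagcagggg
Kcnmb4: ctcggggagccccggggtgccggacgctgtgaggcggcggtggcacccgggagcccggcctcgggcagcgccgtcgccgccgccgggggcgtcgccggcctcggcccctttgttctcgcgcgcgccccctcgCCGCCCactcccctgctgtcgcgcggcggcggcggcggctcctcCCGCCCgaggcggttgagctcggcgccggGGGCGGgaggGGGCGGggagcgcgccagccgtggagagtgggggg
Kcnk13: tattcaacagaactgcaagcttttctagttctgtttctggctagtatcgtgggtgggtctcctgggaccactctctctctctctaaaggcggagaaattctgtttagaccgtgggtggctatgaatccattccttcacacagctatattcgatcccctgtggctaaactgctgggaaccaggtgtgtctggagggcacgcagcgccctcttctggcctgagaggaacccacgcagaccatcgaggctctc
Kcnc4 held a GC box, Kcnmb4 held 4 of them, Kcnj9 held a STAT match, and none of the motifs searched was in the Kcnk13 window. GC content was 68.0%, 52.0%, 83.6% and 52.8% in the order shown. Of the 89 tested members, 65 had a start region in the table. A GC box was in 52.9% of 17 regions of lower members, 45.6% of 90 regions of all tested members and 32.7% of all 32851 regions. A STAT match was in 11.8% of the lower members' regions (Kcnj9 and Kcnk4), 7.78% of the tested members' and 7.02% of all. AP-1 was in 5.88% (Kcnip4), 4.44% and 6.75%, and no member's region held a CRE, which was in 1.55% of all regions. Neither region of the higher members in the table held any of the 4 motifs.

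Among the voltage-gated pores, 3 of the Kcnc genes, which serve fast-spiking neurons, fell. Levels below are log2 channel intensities, 1 value per animal, after within-array and between-array normalisation, and are not compared between genes. Each group had 2 animals in each dye, and no array joined a cryolesioned animal with a control of its own genotype. Separations of 4 cryolesioned from 4 control animals only describe the levels, as their share over all features was not counted. Kcnc4 had log2 intensities of 9.997, 9.31, 9.19 and 9.44 in Il6-deficient cryolesioned animals and of 9.67, 9.15, 9.50 and 9.31 in floxed cryolesioned animals. Kcnc4 stood at 10.23, 10.53, 10.21 and 10.38 in Il6-deficient controls and at 10.20, 10.37, 10.02 and 9.90 in floxed controls. Within each genotype the 4 cryolesioned animals lay below the 4 controls, and 1 Il6-deficient cryolesioned animal overlapped the floxed controls. Kcnc4 fell by 0.76 ± 0.10 (SE) on the log2 scale in the pooled comparison (limma, adjusted p = 0.00614), and its change was -0.69 ± 0.14 in Il6-deficient animals (adjusted p = 0.0590) and -0.84 ± 0.14 in floxed animals (adjusted p = 0.0310). A second, dimmer Kcnc4 probe, matched to a predicted transcript, gave -0.10. Kcnc2 read 10.003, 9.47, 9.66 and 9.86 in the Il6-deficient cryolesioned animals and 9.73, 8.98, 9.52 and 9.14 in the floxed cryolesioned animals. Kcnc2 read 10.36, 10.19, 10.26 and 10.48 in the Il6-deficient controls and 10.22, 9.67, 10.29 and 10.16 in the floxed controls. The Il6-deficient groups did not overlap, and 1 floxed control, animal 2, lay among the floxed cryolesioned animals. Among the other called members with levels given per animal, floxed control animal 2 read lowest of the floxed controls for Kcnh5, Kcnip4, Kcnj3, Kcnj9, Kcnk13, Kcnmb4, Kcns3 and Kcnv1. It read highest of them for Kcnc4, Kcnh3 and Kcnj14. Among members not called, it read lowest for Kcnd2, Kcne2, Kcnf1, Kcng1, Kcnip2, Kcnma1, Kcnrg and Kcnu1. This animal was the floxed control with Y-linked signal. Kcnc2 fell by 0.74 ± 0.14 (adjusted p = 0.0208). Kcnc1 averaged 10.46 ± 0.25 in Il6-deficient cryolesioned, 10.11 ± 0.17 in floxed cryolesioned, 10.72 ± 0.19 in Il6-deficient control and 10.55 ± 0.12 in floxed control animals (SD, n = 4). Kcnc1 fell by 0.41 ± 0.10 (adjusted p = 0.0434), with -0.08 ± 0.14 in Il6-deficient animals (adjusted p = 0.832) and -0.74 ± 0.14 in floxed animals (adjusted p = 0.0438). Its other 2 probes gave -0.64 and -0.60 pooled, and -0.57 and -0.60 in Il6-deficient animals, so the small Il6-deficient value belonged to the brightest probe.

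Kcnb2, a delayed rectifier of the neuronal soma, was at -0.35 ± 0.12 and did not pass (adjusted p = 0.0967). Of the 3 Kcnd genes, which carry the fast transient current of dendrites, Kcnd2 lay closest to the threshold. Kcnd2 had log2 intensities of 11.11, 11.27, 11.78 and 11.67 in Il6-deficient cryolesioned animals and of 11.10, 10.50, 11.18 and 11.24 in floxed cryolesioned animals. Kcnd2 stood at 12.14, 11.88, 11.69 and 11.92 in Il6-deficient controls and at 11.93, 11.06, 11.88 and 11.998 in floxed controls. A single floxed control read 11.06, below all but 1 of the cryolesioned animals. Kcnd2 was at -0.61 ± 0.16 (adjusted p = 0.0505), Kcnd3 at -0.15 ± 0.23 and Kcnd1 at -0.05 ± 0.06. None of the 8 Kcna genes, the low-threshold axonal channels, passed: their pooled changes ran from -0.39 (Kcna1) to 0.29 (Kcna5), with Kcna2 at -0.20 ± 0.19 and Kcna3 at 0.10 ± 0.11.

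The silent subunits held the member with the lowest adjusted p, Kcnv1. Kcnv1 had log2 intensities of 9.91, 9.79, 10.19 and 9.74 in Il6-deficient cryolesioned animals and of 9.14, 9.51, 10.01 and 9.06 in floxed cryolesioned animals. Kcnv1 stood at 10.54, 10.57, 10.67 and 10.697 in Il6-deficient controls and at 10.61, 10.23, 10.79 and 10.75 in floxed controls. All 8 cryolesioned animals lay below all 8 controls. Kcnv1 fell by 1.08 ± 0.08 pooled (adjusted p = 0.000955), and the change was -0.99 ± 0.11 in Il6-deficient animals (adjusted p = 0.0111) and -1.17 ± 0.11 in floxed animals (adjusted p = 0.00631). A second Kcnv1 probe gave -0.89 pooled and passed as well. Kcns3 read 8.03, 8.09, 8.34 and 7.87 in the Il6-deficient cryolesioned animals and 8.08, 7.75, 8.15 and 8.14 in the floxed cryolesioned animals. Kcns3 read 8.84, 8.63, 8.78 and 8.59 in the Il6-deficient controls and 8.66, 7.94, 8.49 and 8.60 in the floxed controls. Kcns3, a subunit known from inhibitory interneurons, separated the Il6-deficient groups, and 1 floxed control fell among the floxed cryolesioned animals. It fell by 0.60 ± 0.10 pooled (adjusted p = 0.0127), with -0.86 ± 0.14 in Il6-deficient animals (adjusted p = 0.0314) and -0.34 ± 0.14 in floxed animals (adjusted p = 0.242).

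Kcns1 and Kcns2 were at -0.55 ± 0.15 (adjusted p = 0.0580) and -0.30 ± 0.12 (adjusted p = 0.138). Kcng3 fell by 0.22 ± 0.06 pooled (adjusted p = 0.0465), but its probe was dim: 0 of 4 floxed cryolesioned animals and 4 of 4 floxed controls gave a signal well above background, and the floxed control level was at least 1.15-fold higher (adjusted p = 0.148). That fold is set against the probe's own signal in the floxed cryolesioned animals, which was not well above background, so it is a bound. Kcng1 had log2 intensities of 8.96, 7.89, 8.57 and 8.83 in Il6-deficient cryolesioned animals and of 8.39, 7.93, 8.41 and 7.71 in floxed cryolesioned animals. Kcng1 stood at 8.64, 8.37, 8.55 and 8.74 in Il6-deficient controls and at 8.80, 8.59, 8.97 and 8.70 in floxed controls. The floxed cryolesioned animals lay below the floxed controls, while the Il6-deficient groups overlapped. Kcng1 was at -0.03 ± 0.12 in Il6-deficient animals (adjusted p = 0.936) and -0.58 ± 0.12 in floxed animals (adjusted p = 0.0556). Kcnf1 read 9.68, 8.93, 9.18 and 9.30 in the Il6-deficient cryolesioned animals and 9.87, 9.05, 9.25 and 8.60 in the floxed cryolesioned animals. Kcnf1 read 9.72, 9.88, 9.70 and 9.90 in the Il6-deficient controls and 9.77, 9.10, 9.58 and 9.68 in the floxed controls. Kcnf1 separated only the Il6-deficient groups, and its pooled change of -0.37 ± 0.21 did not pass (adjusted p = 0.315).

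**Figure D2:**
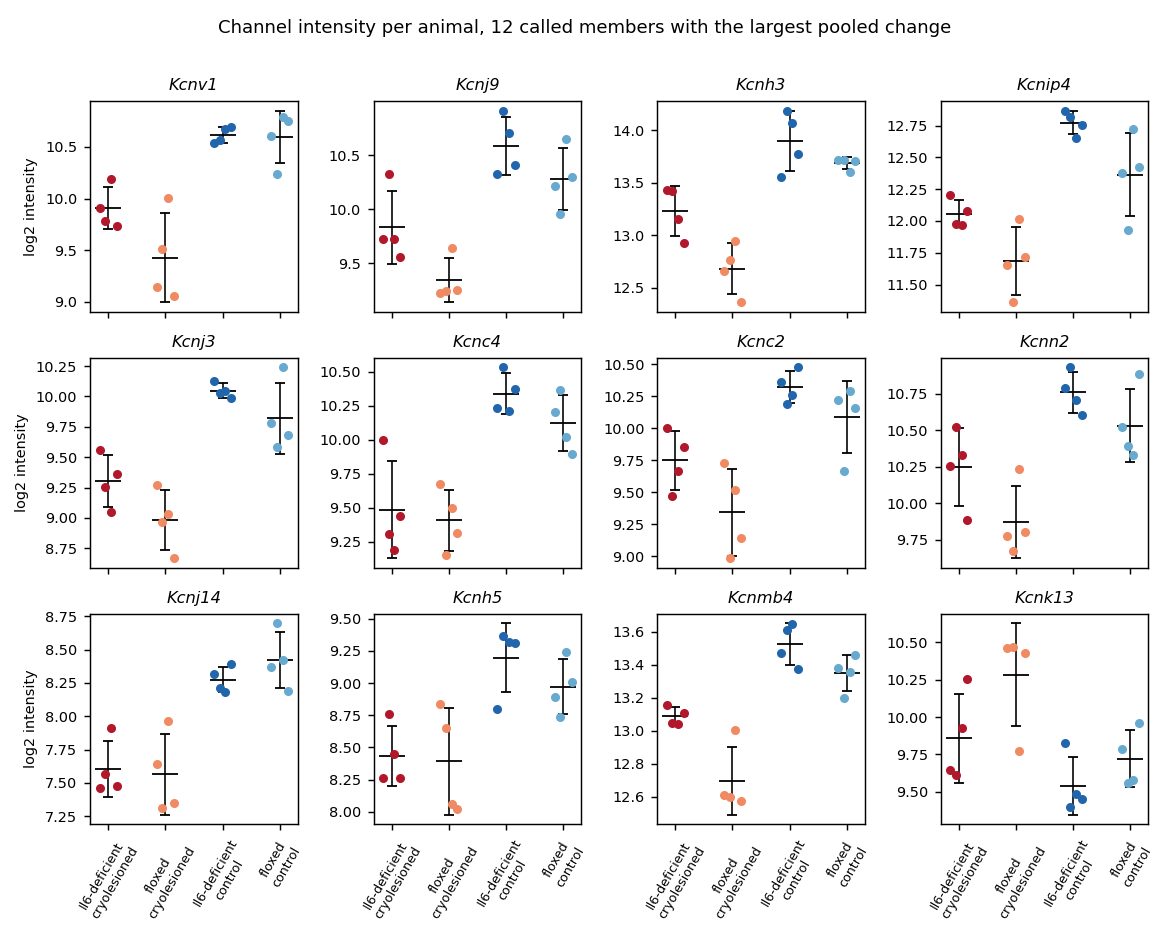
Log2 channel intensity of the 12 called members with the largest pooled change, 1 panel per gene with its own vertical scale. Each point is 1 animal (4 per group), and bars give the group mean ± SD. In the 11 lower members the cryolesioned groups sit below the controls on average. All 8 cryolesioned animals lie below all 8 controls for Kcnv1, Kcnh3, Kcnj3, Kcnj14 and Kcnmb4, as 1.73% of all features did. The members were chosen by their change in the same data, so this is not separate evidence. Kcnk13 runs the other way and its groups overlap.

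Kcnh genes encode the ether-a-go-go family, and 2 of 8 fell (median -0.29). Kcnh3, a channel of forebrain neurons, had the largest fall in floxed animals among the called members. Kcnh3 had log2 intensities of 13.43, 13.42, 13.15 and 12.92 in Il6-deficient cryolesioned animals and of 12.66, 12.76, 12.94 and 12.36 in floxed cryolesioned animals. Kcnh3 stood at 13.55, 14.18, 14.07 and 13.78 in Il6-deficient controls and at 13.72, 13.72, 13.60 and 13.71 in floxed controls. All cryolesioned animals were below all controls, and the floxed cryolesioned ones were lowest on average. Kcnh3 fell by 0.91 ± 0.08 pooled (adjusted p = 0.00155), with -0.60 ± 0.11 in Il6-deficient animals (adjusted p = 0.0433) and -1.23 ± 0.11 in floxed animals (adjusted p = 0.00573). Kcnh5 read 8.26, 8.76, 8.45 and 8.26 in the Il6-deficient cryolesioned animals and 8.84, 8.65, 8.06 and 8.02 in the floxed cryolesioned animals. Kcnh5 read 8.80, 9.36, 9.32 and 9.31 in the Il6-deficient controls and 8.89, 8.73, 9.24 and 9.01 in the floxed controls. Kcnh5 separated the Il6-deficient groups, and the floxed groups overlapped. It fell by 0.67 ± 0.17 (adjusted p = 0.0497). Kcnh7 and Kcnh1 were at -0.45 ± 0.16 and -0.37 ± 0.21 and did not pass.

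Kcnq3 and Kcnq5 encode subunits of the M current, which damps neuronal firing, and Kcnq3 fell. Kcnq3 had log2 intensities of 7.91, 7.78, 7.89 and 7.86 in Il6-deficient cryolesioned animals and of 8.13, 7.97, 7.66 and 7.58 in floxed cryolesioned animals. Kcnq3 stood at 8.18, 8.47, 8.52 and 8.50 in Il6-deficient controls and at 8.33, 8.41, 8.55 and 8.27 in floxed controls. Every cryolesioned animal read below every control. Kcnq3 fell by 0.50 ± 0.08 pooled (adjusted p = 0.0118), with -0.36 ± 0.11 in Il6-deficient animals (adjusted p = 0.149) and -0.63 ± 0.11 in floxed animals (adjusted p = 0.0360). Kcnq5 was at -0.48 ± 0.16 (adjusted p = 0.103), although a dimmer Kcnq5 probe passed at -0.29. Kcnq1, better known from heart and epithelia, rose by 0.44 ± 0.11 (adjusted p = 0.0478) on a dim probe. Another of its 4 probes gave 0.41 without passing, and the remaining ones gave -0.12 and -0.01.

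Auxiliary subunits showed a fall in a potassium channel-interacting protein and in a BK subunit. Kcnip proteins bind Kcnd channels, and Kcnip4 fell. Kcnip4 had log2 intensities of 12.20, 11.98, 11.97 and 12.08 in Il6-deficient cryolesioned animals and of 11.65, 11.36, 12.01 and 11.72 in floxed cryolesioned animals. Kcnip4 stood at 12.87, 12.82, 12.65 and 12.75 in Il6-deficient controls and at 12.38, 11.93, 12.72 and 12.43 in floxed controls. The Il6-deficient groups were apart, whereas 1 floxed control lay within the floxed cryolesioned range. Kcnip4 fell by 0.87 ± 0.11 pooled (adjusted p = 0.00585), with -1.10 ± 0.16 in Il6-deficient animals (adjusted p = 0.0232) and -0.64 ± 0.16 in floxed animals (adjusted p = 0.0863). Kcnip2 read 7.27, 7.36, 8.24 and 7.85 in the Il6-deficient cryolesioned animals and 7.54, 7.27, 8.16 and 7.49 in the floxed cryolesioned animals. Kcnip2 read 8.55, 8.35, 8.60 and 8.67 in the Il6-deficient controls and 8.91, 8.51, 8.59 and 8.58 in the floxed controls. Kcnip2 separated all 8 cryolesioned from all 8 control animals, yet its pooled change of -0.88 ± 0.23 narrowly missed (adjusted p = 0.0518). Kcnip1 was at -0.24 ± 0.10, and Kcnip3, which also acts as a calcium-binding transcriptional repressor, at 0.34 ± 0.29.

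Kcnmb4 is the neuronal beta subunit of BK, the large-conductance calcium-activated channel. Kcnmb4 had log2 intensities of 13.16, 13.05, 13.04 and 13.11 in Il6-deficient cryolesioned animals and of 12.61, 12.60, 13.01 and 12.58 in floxed cryolesioned animals. Kcnmb4 stood at 13.47, 13.61, 13.65 and 13.37 in Il6-deficient controls and at 13.38, 13.20, 13.36 and 13.46 in floxed controls. All cryolesioned animals lay below all controls, and the Il6-deficient cryolesioned animals were all above the floxed cryolesioned ones. Kcnmb4 fell by 0.62 ± 0.06 pooled (adjusted p = 0.00295), with -0.59 ± 0.09 in Il6-deficient animals (adjusted p = 0.0275) and -0.65 ± 0.09 in floxed animals (adjusted p = 0.0183). A second, dimmer Kcnmb4 probe gave -0.44 pooled without passing, with -0.31 in Il6-deficient and -0.58 in floxed animals. The noncoding Kcnmb4os2, named as an opposite-strand transcript of Kcnmb4, was at -0.10 ± 0.07, and Kcnmb2 at -0.21 ± 0.07 (adjusted p = 0.0921). Kcnma1 read 13.23, 13.53, 13.04 and 12.85 in the Il6-deficient cryolesioned animals and 13.03, 12.83, 12.58 and 12.64 in the floxed cryolesioned animals. Kcnma1 read 13.66, 14.18, 14.04 and 13.78 in the Il6-deficient controls and 13.54, 12.73, 13.47 and 13.71 in the floxed controls. Kcnma1, the BK pore itself, separated the Il6-deficient groups only. Its pooled change was -0.81 ± 0.22 (adjusted p = 0.0562), and its 5 probes were all negative, from -0.81 to -0.27, with none passing.

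None of the 3 Kcnab or 5 Kcne genes passed. Kcnab3 had log2 intensities of 10.20, 10.90, 9.91 and 9.90 in Il6-deficient cryolesioned animals and of 10.36, 10.13, 9.61 and 10.47 in floxed cryolesioned animals. Kcnab3 stood at 10.64, 10.55, 10.80 and 10.63 in Il6-deficient controls and at 10.10, 10.35, 10.81 and 10.17 in floxed controls. Kcnab3, a beta subunit of Kcna channels, overlapped between groups and was at -0.53 ± 0.15 (adjusted p = 0.0726), while Kcnab1 and Kcnab2 were at -0.04 ± 0.19 and -0.00 ± 0.16. Kcne2 read 6.25, 6.04, 6.33 and 6.12 in the Il6-deficient cryolesioned animals and 6.23, 6.61, 6.14 and 6.14 in the floxed cryolesioned animals. Kcne2 read 6.43, 6.29, 6.20 and 8.42 in the Il6-deficient controls and 8.01, 6.22, 7.33 and 6.34 in the floxed controls. Kcne2 was high in 3 controls, above 7, and read at most 6.61 in every other animal, and its pooled change was -0.75 ± 0.37 (adjusted p = 0.240). Kcne2 is known from choroid plexus, and the plexus transcript Ttr, chosen after these values were seen, was highest in the same 3 controls, at 14.36 in the Il6-deficient and at 14.04 and 12.91 in the floxed ones, against at most 9.79 in the cryolesioned animals. Of another 4 plexus genes chosen in the same way, Clic6 and Kl were also highest in these 3 controls. Folr1 was highest in floxed cryolesioned animal 2, at 8.913. It was next highest in the same 3 controls, at 8.614 in the Il6-deficient and at 8.355 and 8.208 in the floxed ones. Aqp1 was highest in floxed cryolesioned animals 1 and 2, at 7.838 and 7.816. The pooled changes of these 4 genes were -0.54 (Clic6), -0.20 (Kl), -0.07 (Folr1) and 0.60 (Aqp1), against -2.47 for Ttr, and none of the 5 passed. The part of plexus tissue in the Kcne2 values was not tested. Kcnj13, another channel of that epithelium, was at -0.84 ± 0.33 (adjusted p = 0.144). Kcne3 was at 0.20 ± 0.08, and Kcne1l, an older symbol of Kcne5, at 0.58 ± 0.29.

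Among channels gated by ions inside the cell, Kcnn2, the small-conductance calcium-activated channel of the afterhyperpolarisation, fell. Kcnn2 had log2 intensities of 10.26, 10.52, 10.33 and 9.89 in Il6-deficient cryolesioned animals and of 9.78, 9.67, 10.24 and 9.80 in floxed cryolesioned animals. Kcnn2 stood at 10.79, 10.93, 10.71 and 10.60 in Il6-deficient controls and at 10.52, 10.39, 10.33 and 10.88 in floxed controls. Within each genotype the groups did not overlap. Kcnn2 fell by 0.71 ± 0.13 pooled (adjusted p = 0.0159), and 2 dimmer probes gave -0.34 and -0.29. Kcnn1 and Kcnn3 were at -0.06 ± 0.07 and 0.01 ± 0.07. Kcnn4, the intermediate-conductance channel of immune cells, was at 0.54 ± 0.16 (adjusted p = 0.0799). Kcnt2 read 8.12, 8.80, 8.52 and 8.34 in the Il6-deficient cryolesioned animals and 8.26, 8.56, 8.58 and 7.89 in the floxed cryolesioned animals. Kcnt2 read 8.98, 9.31, 9.06 and 8.97 in the Il6-deficient controls and 8.92, 9.08, 9.11 and 8.92 in the floxed controls. Kcnt2, a sodium-activated channel, separated all cryolesioned from all control animals, with a pooled change of -0.59 ± 0.16 (adjusted p = 0.0567). Kcnt1 was at 0.30 ± 0.19 pooled (adjusted p = 0.357) and did not pass. It was at 0.69 ± 0.27 in Il6-deficient animals (adjusted p = 0.236) and -0.08 ± 0.27 in floxed animals (adjusted p = 0.918). Dimmer Kcnt1 probes gave 0.34 and 0.17 in Il6-deficient animals. Kcnu1 had log2 intensities of 8.37, 7.70, 8.32 and 8.50 in Il6-deficient cryolesioned animals and of 8.04, 8.16, 8.16 and 7.82 in floxed cryolesioned animals. Kcnu1 stood at 8.30, 8.21, 8.27 and 8.27 in Il6-deficient controls and at 8.38, 8.28, 8.46 and 8.65 in floxed controls. Kcnu1, a channel of sperm, was at -0.16 ± 0.07 (adjusted p = 0.207), and only its floxed groups did not overlap.

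Inward rectifiers gave 4 falls and 1 rise among 12 tested members (median -0.34). Kcnj3 and Kcnj9 encode subunits of the channel opened by G proteins, which inhibitory transmitters act on. Kcnj9 had log2 intensities of 9.73, 10.32, 9.72 and 9.56 in Il6-deficient cryolesioned animals and of 9.22, 9.24, 9.65 and 9.26 in floxed cryolesioned animals. Kcnj9 stood at 10.33, 10.91, 10.703 and 10.41 in Il6-deficient controls and at 10.21, 9.96, 10.65 and 10.30 in floxed controls. Cryolesioned animals lay below controls within each genotype. Kcnj9 fell by 1.08 ± 0.16 pooled (adjusted p = 0.00921), with -1.06 ± 0.22 in Il6-deficient animals (adjusted p = 0.0634) and -1.10 ± 0.22 in floxed animals (adjusted p = 0.0539). Kcnj3 read 9.56, 9.25, 9.05 and 9.36 in the Il6-deficient cryolesioned animals and 9.27, 8.97, 9.04 and 8.67 in the floxed cryolesioned animals. Kcnj3 read 10.13, 10.03, 10.05 and 9.99 in the Il6-deficient controls and 9.78, 9.58, 10.24 and 9.68 in the floxed controls. All cryolesioned animals lay below all controls. Kcnj3 fell by 0.83 ± 0.16 (adjusted p = 0.0222), and so did a second Kcnj3 probe (-0.56). Kcnj6, another subunit of that channel in neurons, was at 0.07 ± 0.11.

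Kcnj14 had log2 intensities of 7.46, 7.57, 7.91 and 7.48 in Il6-deficient cryolesioned animals and of 7.64, 7.31, 7.96 and 7.35 in floxed cryolesioned animals. Kcnj14 stood at 8.31, 8.21, 8.18 and 8.39 in Il6-deficient controls and at 8.37, 8.70, 8.42 and 8.19 in floxed controls. Kcnj14, a strong inward rectifier, again had no overlap between the 8 cryolesioned and 8 control animals and fell by 0.71 ± 0.17 (adjusted p = 0.0404). Kcnj11 and Kcnj8 encode pores of channels closed by ATP. Kcnj11 averaged 7.98 ± 0.32 in Il6-deficient cryolesioned, 7.94 ± 0.29 in floxed cryolesioned, 8.27 ± 0.05 in Il6-deficient control and 8.13 ± 0.24 in floxed control animals (SD, n = 4). Kcnj8 averaged 9.05 ± 0.07 in Il6-deficient cryolesioned, 9.22 ± 0.19 in floxed cryolesioned, 8.74 ± 0.10 in Il6-deficient control and 8.80 ± 0.19 in floxed control animals (SD, n = 4). Kcnj11, the pore of the neuronal form, fell by 0.34 ± 0.07 (adjusted p = 0.0290), and a second, dimmer Kcnj11 probe gave -0.20 without passing. Kcnj8, the pore of the vascular form, rose by 0.44 ± 0.09 (adjusted p = 0.0310). Both calls were easily lost: Kcnj11 was called in 3 and Kcnj8 in 2 of 8 fits that left out an array, and neither with sex as a covariate or with median centring. Their regulatory subunits were at -0.74 ± 0.14, adjusted p = 0.0218 for Abcc8 and 0.15 ± 0.09, adjusted p = 0.308 for Abcc9. Of the pericyte and smooth muscle markers, 1 of 6 rose (Tagln, at 2.18) and 1 fell (Vtn, at -0.44). The remaining ones ran from -0.28 (Rgs5) to 0.29 (Acta2). The marker mean, which Tagln weighs on most, was 9.97 in Il6-deficient cryolesioned and 10.08 in floxed cryolesioned animals. It was 9.69 in Il6-deficient control and 9.75 in floxed control animals. The part of these markers in the Kcnj8 result was not tested. Kcnj2 and the glial Kcnj16 were at -0.27 ± 0.14 and -0.15 ± 0.10.

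**Figure D3:**
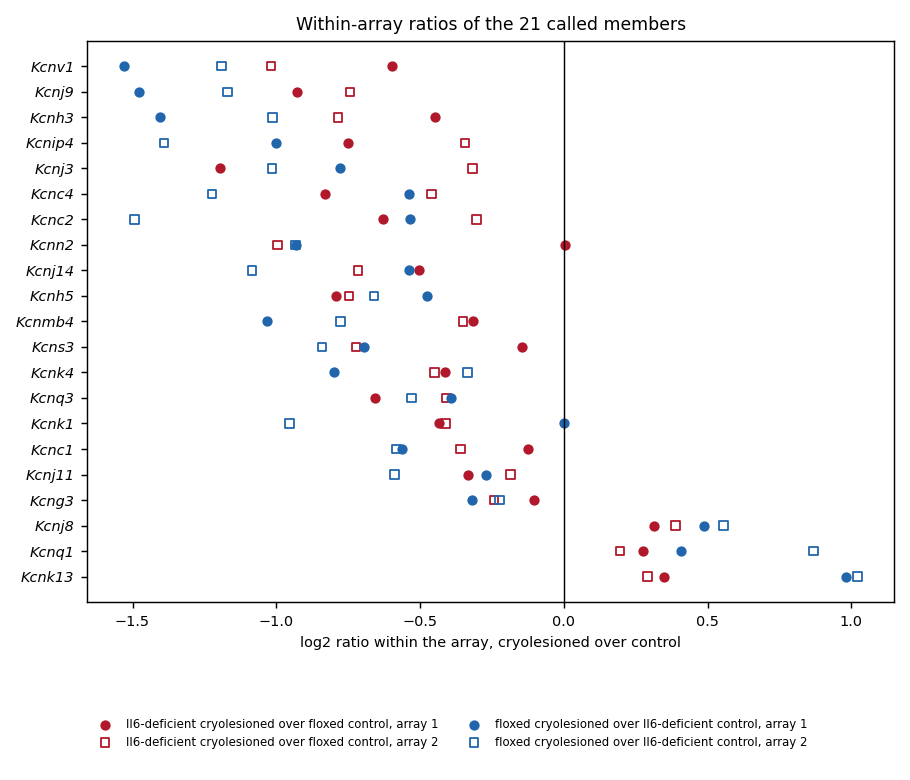
Log2 ratio of the cryolesioned over the control animal within each of the 4 arrays that held both, for the 21 called members. Red marks are arrays of Il6-deficient cryolesioned over floxed control animals and blue marks floxed cryolesioned over Il6-deficient control animals. 16 of the 18 lower members are below 0 on all 4 arrays (Kcnk1 and Kcnn2 have 1 array just above 0), and the 3 higher members are above 0 on all 4. The members were called from the mean of these same arrays.

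The tandem-pore leak channels held the clearest rise. Kcnk13 had log2 intensities of 9.65, 9.61, 9.93 and 10.25 in Il6-deficient cryolesioned animals and of 10.47, 10.47, 9.77 and 10.43 in floxed cryolesioned animals. Kcnk13 stood at 9.82, 9.40, 9.49 and 9.45 in Il6-deficient controls and at 9.78, 9.56, 9.58 and 9.96 in floxed controls. In floxed cryolesioned animals 3 of 4 were above all controls, and the Il6-deficient groups overlapped. Kcnk13, the leak channel of mouse microglia, rose by 0.66 ± 0.10 pooled (adjusted p = 0.0104), with 0.45 ± 0.14 in Il6-deficient animals (adjusted p = 0.156) and 0.87 ± 0.14 in floxed animals (adjusted p = 0.0296). Over the same animals 1 of 7 microglia markers rose (Cx3cr1) and 3 fell, with a mean of 11.44 and 11.38 in Il6-deficient and floxed cryolesioned animals and 11.43 and 11.67 in the matching controls. Cx3cr1 itself read lower in Il6-deficient than in floxed animals, at 11.44 against 12.24 after cryolesion and 10.90 against 11.95 in controls. The other markers were higher in Il6-deficient animals after cryolesion and mixed in controls. Of 6 markers of blood-derived myeloid cells, 4 rose, their mean being 8.65, 9.11, 7.41 and 7.51 in the same order. Their part in the Kcnk13 result was not tested.

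Kcnk1 averaged 10.60 ± 0.15 in Il6-deficient cryolesioned, 10.67 ± 0.32 in floxed cryolesioned, 11.05 ± 0.18 in Il6-deficient control and 10.95 ± 0.09 in floxed control animals (SD, n = 4). Kcnk4 averaged 9.27 ± 0.29 in Il6-deficient cryolesioned, 9.20 ± 0.10 in floxed cryolesioned, 9.68 ± 0.16 in Il6-deficient control and 9.50 ± 0.19 in floxed control animals (SD, n = 4). Kcnk1 and Kcnk4, leak channels of astrocytes and neurons, fell by 0.45 ± 0.10 (adjusted p = 0.0386) and by 0.50 ± 0.10 (adjusted p = 0.0236), and a second Kcnk4 probe fell as well (-0.65). The other 9 tested Kcnk genes ran from -0.29 to 0.27, with Kcnk2 at -0.29 ± 0.18, Kcnk3 at -0.20 ± 0.10, Kcnk6 at 0.26 ± 0.10 and Kcnk9 at -0.08 ± 0.06. Kcnrg read 6.78, 6.63, 6.48 and 6.74 in the Il6-deficient cryolesioned animals and 6.46, 6.59, 6.57 and 6.55 in the floxed cryolesioned animals. Kcnrg read 6.71, 6.67, 6.57 and 6.61 in the Il6-deficient controls and 6.61, 6.37, 6.63 and 6.60 in the floxed controls. Kcnrg, a regulator of channel assembly, thus read within a narrow range in all groups, at -0.04 ± 0.08. The noncoding Kcnq1ot1, which lies antisense within Kcnq1, was at 0.49 ± 0.13 on its brightest probe (adjusted p = 0.0542), and all 4 of its probes were positive with 2 past the threshold. Probe strands are not given in the files used, so signal of Kcnq1 and Kcnq1ot1 is reported as uncertain.

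Across the 4 lesion-against-control arrays, 39 members (43.8%) were lower on every array and 9 (10.1%) higher on every array, beside 17.9% and 14.7% of 29357 features. Of the members higher on every array, Kcne3 and Kcnk7 passed the filter only through cryolesioned animals, so their place there is not support. Kcnk7 was well above background in 3 Il6-deficient and 3 floxed cryolesioned animals and in 0 controls of either genotype. Kcne3 was so in 3 Il6-deficient and 4 floxed cryolesioned animals, against 0 Il6-deficient controls and 1 floxed control. All 8 cryolesioned animals read below all 8 controls for 9 members, Kcng3, Kcnh3, Kcnip2, Kcnj3, Kcnj14, Kcnmb4, Kcnq3, Kcnt2 and Kcnv1, where 1.73% of all features did so. Kcng3 passed the filter only through the controls. Its probe was well above background in 1 Il6-deficient and 0 floxed cryolesioned animals, against 3 Il6-deficient and 4 floxed controls. Neither its separation nor its place among the 39 members is therefore support. No member had all cryolesioned animals above all controls, as 3.24% of features did. Of the 33 members with several probes past the filter, 29 had all probes on the same side of 0, and none had probes called in opposite directions. Kcnh4 and Kcnj12, like Kcnq5 and Kcnq1ot1, passed only on a dimmer probe, at -0.50 and -0.63.

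Whether loss of microglial Il6 altered these genes was asked among controls and among cryolesioned animals. No member passed in either, nor did any of the tested features (0% called in each). At an unadjusted p under 0.05, 6 members among controls, 11 after cryolesion and 5 for the interaction were found, where 4.42%, 8.61% and 3.31% of all features were. After cryolesion the median difference of the members, Il6-deficient minus floxed, was 0.13 against 0.01 for all features. Of the 89 members, 65 were positive and 24 negative (27.0%), where 47.0% of all features were negative. The median of the members ran from 0.0607 in the separate-channel fit with the replicate block to 0.231 on the scanner's processed signals. Kcnh3 had the lowest unadjusted p there, with a difference of 0.69 ± 0.10 (adjusted p = 0.563). It was followed by Kcnc1 at 0.59 ± 0.12 on its brightest probe and Kcnk13 at -0.51 ± 0.12. Among controls Kcnip4 was at 0.62 ± 0.14 (adjusted p = 0.983).

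The interaction asks whether the cryolesion change differed between genotypes, as Il6-deficient minus floxed. No member and none of the tested features passed (0%). The lowest unadjusted p values were those of Kcnh3 (0.62 ± 0.16), Kcnc1 (0.66 ± 0.20) and Kcng1 (0.55 ± 0.17), all with an adjusted p of 1. The Kcnc1 difference belonged to its brightest probe: the other 2 probes gave -0.70 and -0.60 in floxed animals and -0.57 and -0.60 in Il6-deficient animals. Kcns3, called only in Il6-deficient animals, was at -0.53 ± 0.20. Both within-genotype changes were fitted from the same 8 arrays and share the lesion-against-control arrays, so calls common to them are not separate evidence. In fits that left out an array, the Il6-deficient call held in 5 of 8 for Kcnv1, 2 for Kcnip4, 1 for Kcnmb4, 1 for Kcns3 and 0 for Kcnh3. The floxed call held in 6 of 8 for Kcnh3 and for Kcnv1, 3 for Kcnmb4, 2 for Kcnk13 and 1 each for Kcnc1, Kcnc4 and Kcnq3. A further 12 members were called only in the pooled comparison.

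**Figure D4:**
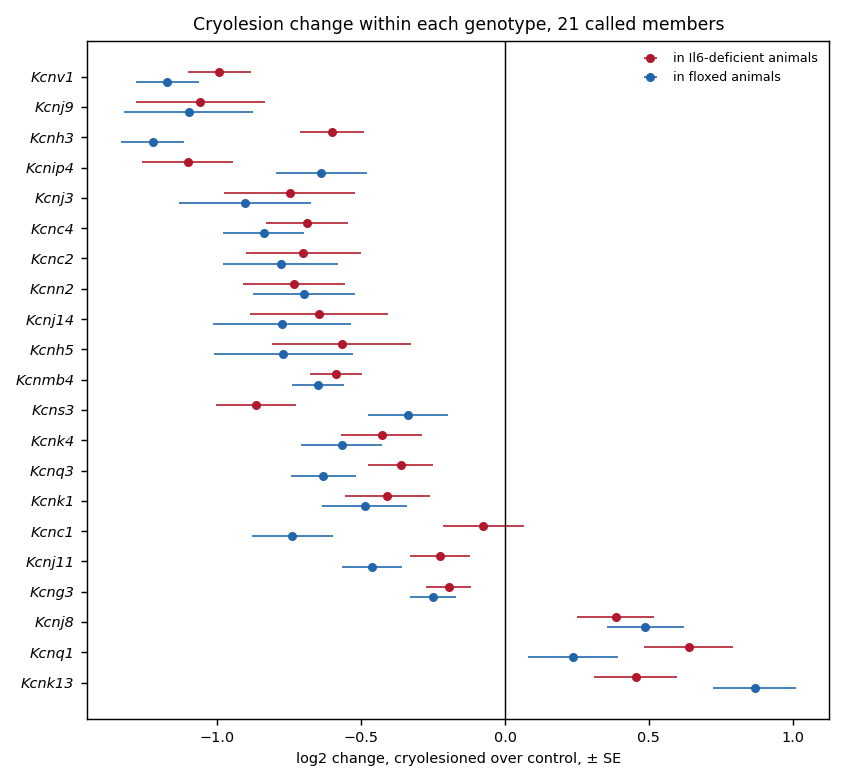
Fitted log2 change, cryolesioned over control, of the 21 called members within Il6-deficient animals (red, above) and within floxed animals (blue, below), with bars of ± 1 SE. Every value has the sign of the pooled change. Kcnc1 (brightest probe only) and Kcnh3 lie farther from 0 in floxed animals, and Kcnip4 and Kcns3 in Il6-deficient animals. No such difference passed the interaction test.

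Proteins that bind or anchor potassium channels were described from a separate list of 18 genes, 16 of them tested. In the pooled comparison 6 fell and none rose, beside 5.86% lower and 6.01% higher over all tested features. Their median log2 change was -0.32. Dpp10 and Dpp6, subunits of Kcnd channels, were at -0.83 ± 0.10, adjusted p = 0.00473 and -0.40 ± 0.10, adjusted p = 0.0487. Cntnap2 and Adam22, which hold Kcna channels at the axon, were at -0.61 ± 0.08, adjusted p = 0.00627 and -0.65 ± 0.16, adjusted p = 0.0431. Ank3, the scaffold of the axon initial segment, where Kcnq channels sit, was at -0.55 ± 0.12, adjusted p = 0.0362, and Abcc8 is given above with Kcnj11. Dpp10 and Cntnap2 fell within Il6-deficient animals, and Dpp10 within floxed animals, where 1.07% and 1.19% of all features fell. The pacemaker gene Hcn2 was at -0.30 ± 0.09, adjusted p = 0.0710.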

How the data were processed

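Agilent 2-colour arrays were read by the submitters with Agilent Feature Extraction 10.7.3.1, per the file headers and the submitters' processing notes. The deposited scanner files hold unnormalized median intensity values for spots and local background in both dyes, processed intensity values that the scanner software background-subtracted and dye-normalized, and a log10 ratio of Cy5 over Cy3. The authors' deposited value table holds log2 ratios, with no normalization stated, and it matched the loess ratios with correlations of 0.967 to 0.977 and medians from -0.00579 to 0.00762. Its scale differed, with slopes of 1.13 to 1.26.

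Median signals were background-corrected in limma 3.58.1 (R 4.3.3) by normexp with an offset of 50 and loess-normalized within arrays, leaving control and outlier spots out. A probe needed a signal well above background in at least 4 of 16 channels, as 37352 of 56605 probes had. In single channels 61.0% to 67.4% of probes rose well above background, and no spot was saturated. The number of arrays limits the precision. Probes were named through RefSeq accessions (32994 named, 23611 without a name), and a gene was read by its brightest probe. A linear model with a dye term was fitted to all 8 arrays and tested with moderated statistics (limma). Benjamini-Hochberg adjustment ran over all 29361 tested features, and calls were made at an adjusted p of 0.05. Per-animal levels came from Aquantile-normalized channels. All arrays shared 1 slide and scan.

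Members, gene lists and tests were chosen with earlier results of these data known. Levels were printed for the 12 called members with the largest pooled change and for the member of each subfamily letter with the largest, and other changes for a fixed set of members. A few genes that these rules select are not reported here. Alternatives covered the offset, normalization, value source, filter, probe averaging, channel-wise fits, sex and each left-out array. The labels do not tie same-numbered animals together, so numbers were not used as pairs. Of 24 such pairs, 14 deviated together at a correlation above 0.1. Their median correlation was 0.159, against -0.0236 for animals with other numbers. The build named in the file headers differs from that of the RefSeq tables, so no positions were joined to probes.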

Additional observations from a re-analysis of the deposited data

Results flagged for a closer look

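Among 100 groups of 4 animals, 1 for each group of 25 members chosen for their levels, 9 held a value farther from the other 3 than Dixon's critical value allows, and chance flags about 1 group in 20. Floxed cryolesioned animal 3 stood apart for 3 members, always toward the controls. It read 9.65 for Kcnj9, where the other 3 read 9.22 to 9.26, and 13.01 for Kcnmb4, where they read 12.58 to 12.61. For Kcnk13, the member that rose, it read 9.77, against 10.43 to 10.47 in the others. Floxed control animal 2 was low for Kcnd2, at 11.06 against 11.88 to 11.998, and for Kcnrg, at 6.37 against 6.60 to 6.63. Floxed control animal 3 read 13.60 for Kcnh3, where the others lay between 13.71 and 13.72. Il6-deficient control animal 1 was low for Kcnh5, at 8.80 against 9.31 to 9.36, and for Kcnq3, at 8.18 against 8.47 to 8.52. Il6-deficient control animal 4 read 8.42 for Kcne2, where the others read 6.20 to 6.43.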

How the results depend on the processing

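Reported counts of called members were 5 in Il6-deficient animals, 7 in floxed animals and 21 pooled. Leaving out 1 array at a time gave 0 to 7 in Il6-deficient animals, 0 to 21 in floxed animals and 7 to 31 pooled. In floxed animals the count was 0 without the first control-side or the second lesion-side array and 21 without the second control-side array. In Il6-deficient animals it was 0 without the first control-side, the second lesion-side or the second deficient-lesion-side array. In the same order of genotypes, median centring gave 2 and 2, and the scanner's processed signals 3 and 3. The separate-channel fit, which uses each animal's intensity, gave 21, 29 and 38 pooled. With the replicate block added to that fit, for animals that share a number, the counts were 25, 33 and 44 pooled. Same-numbered animals of different groups had correlations from -0.327 to 0.457, and 14 of 24 pairs were above 0.1. Their median was 0.159, against -0.0236 for animals with other numbers. The labels do not tie these animals, so the numbers were not taken as pairs, and whether they share anything stays unknown. With sex as a covariate the counts were 2 in Il6-deficient animals and 13 pooled. The sex term was estimated from the second control-side array alone, and the Il6-deficient fit was the same as without that array. The other alternatives, which were an offset of 16, the authors' value table, no filter on dim probes, a filter of 8 channels and the mean over probes, left these counts within 1.5 times the reported ones. The causes of these shifts were not tested. The genotype and interaction comparisons had no called member under any alternative. No called member changed sign under an alternative: 401 of their values stayed past the threshold and 193 did not. The median pooled change of the members ran from -0.317 to -0.126. Dim probes such as those of Kcng3 and Kcnq1 limit what their levels show.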
